A study of Mus musculus with 31 samples.

Results

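Mouse embryonic fibroblasts that carried a GFP retrovirus were compared between day 5 and day 3 after infection, over 4 of the 31 arrays of a reprogramming time course. All arrays titled GFP day 5 or GFP day 3 were taken, 2 per day, and day 5 was set against day 3 within replicate 1 and within replicate 2. Mouse embryonic fibroblasts (MEFs) are primary connective tissue cells from embryos, which divide in culture for a limited number of passages. GFP is a fluorescent protein, and its virus served the study as the control for retroviruses that bring in Oct4, Sox2, Klf4 and c-Myc (4F) or the same factors without c-Myc (3F). The medium was DMEM with fetal bovine serum throughout, and every arm apart from the uninfected day 0 cells had received a retrovirus at day 0. The labels give neither cell density nor passage or medium change between the days, nor do they name the mouse strain or the age of the embryos. The 4F arrays (2 on day 5 and 2 on day 3) and the 3F arrays (1 on day 5 and 1 on day 3) show factor-infected cells over the same days. The replicated 4F arrays, of these and other days, also enter the estimate of spread behind every test of the GFP change.

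Fibroblasts in serum divide until growth factors run down or neighbouring cells touch, and then leave the cell cycle. Dividing cells keep up DNA replication, mitosis and the assembly of ribosomes in the nucleolus, much of it under the E2F, B-Myb and Myc transcription factors. Resting fibroblasts are known instead for high CDK inhibitors, FoxO targets, lysosomes and matrix proteins, and for low activity of serum response factor and YAP, which read actin tension and spreading. MEFs are also a mixed population, and in bulk RNA fewer cells of a type and less RNA per cell cannot be told apart.

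The values are log2 signals of single-colour Affymetrix arrays, so a difference of 1 is a doubling of signal. The median signal of the 4 arrays lay between 6.07 and 6.09, and the 2 replicates correlated with r = 0.991 on day 5 and 0.986 on day 3 across probe sets, which are not independent replicates. Replicate 1 was labelled from 120 ng of RNA and replicate 2 from 300 ng. Over only the rows with 1 gene symbol, the median averaged over the 4 arrays was 6.33 and the upper quartile 7.84. All 12 fibroblast markers were above this median in all 4 arrays, and 11 of them above the upper quartile. The 10 macrophage, 7 endothelial, 5 pluripotency and 3 measured red blood cell markers had no member above the median in all 4 arrays. The macrophage marker Lyz2 came close, at 6.514 and 7.088 on day 5 and 6.328 and 6.945 on day 3. Cd68 was above the median only on day 5, at 6.666 and 6.535, against 5.793 and 6.172 on day 3. Epithelial cells had 2 of 7 such markers (Krt8 and Cldn3), neural cells 2 of 6 (Tubb3 and Map2), and muscle (Acta1), fat (Lpl) and cartilage or bone (Col2a1) 1 each of 5, 6 and 5 measured. None of these marker genes was called between the days. The summed fibroblast marker signal was 15.7 and 15.8 on day 5 and 15.8 and 15.5 on day 3 (log2 of the sum). The other lists' sums were between 6.63 and 9.85 on day 5 and between 6.78 and 9.95 on day 3. The neural sum was higher in replicate 2 than in replicate 1 on both days, at 8.91 and 9.85 on day 5 and 9.09 and 9.95 on day 3. The adipocyte sum was 9.62 and 9.45 on day 5 and 8.99 and 8.89 on day 3. Its brightest member Lpl differed by 1.24, while the median over the adipocyte markers was −0.01. Adipoq and Fabp4 differed by 0.05 each, and Pparg by −0.33, Cidec by −0.11 and Plin1 by −0.06. The skeletal muscle sum was 8.84 and 9.18 on day 5 and 9.20 and 9.59 on day 3. Pou5f1, the gene of Oct4, read 5.37 and 5.49 on day 5 and 5.22 and 5.41 on day 3 in GFP arrays, below the 6.05 to 7.85 of the 4F arrays. Sox2 read 5.36 to 5.57 in GFP arrays and 5.78 to 6.46 in 4F arrays. Klf4 and Myc were not lower in GFP cells. Klf4 read 7.67 to 8.10 in GFP arrays against 7.15 to 7.40 in 4F arrays, and Myc 7.65 to 9.58 against 6.37 to 8.12.

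Single genes of several kinds changed between the days. The chemokine gene Ccl11, the FoxO target Sesn3 and the metallothionein gene Mt1 rose, and the chemokine gene Ccl20, the B-Myb gene Mybl2 and 8 of 44 nucleolar ribosome assembly genes fell. Of 21789 probe sets with 1 gene symbol, 200 passed an adjusted p under 0.05 (limma with the replicate as a block, Benjamini-Hochberg), which is 0.918% of all. There were 110 higher on day 5 (0.505%) and 90 lower (0.413%). A change of at least 1 on the log2 scale as well left 12 higher and 10 lower, 0.101% of all. Without the replicate block the same test called 35, all of them among the 200. The fit was over all 31 arrays and took its spread from the 12 groups with 2 arrays, 4F groups among them. From the 4 compared arrays alone limma called 0, with 2828 probe sets at an unadjusted p under 0.05 against 3356 in the fit over all arrays. These 3356 of 21789 are the share to set beside each list count at an unadjusted p below. Leaving out 1 of the 4 arrays left 10 (without day 5 replicate 1), 64 (without day 5 replicate 2), 68 (without day 3 replicate 1) or 80 calls (without day 3 replicate 2), and array quality weights left 3. The median change over all probe sets was −0.01. By direction alone, 29.8% of all probe sets were lower and 27.8% higher on day 5 in both replicate pairs. How many of all probe sets had days without overlap was not counted, so separation of the days is given below only as a description.

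**Figure D1:**
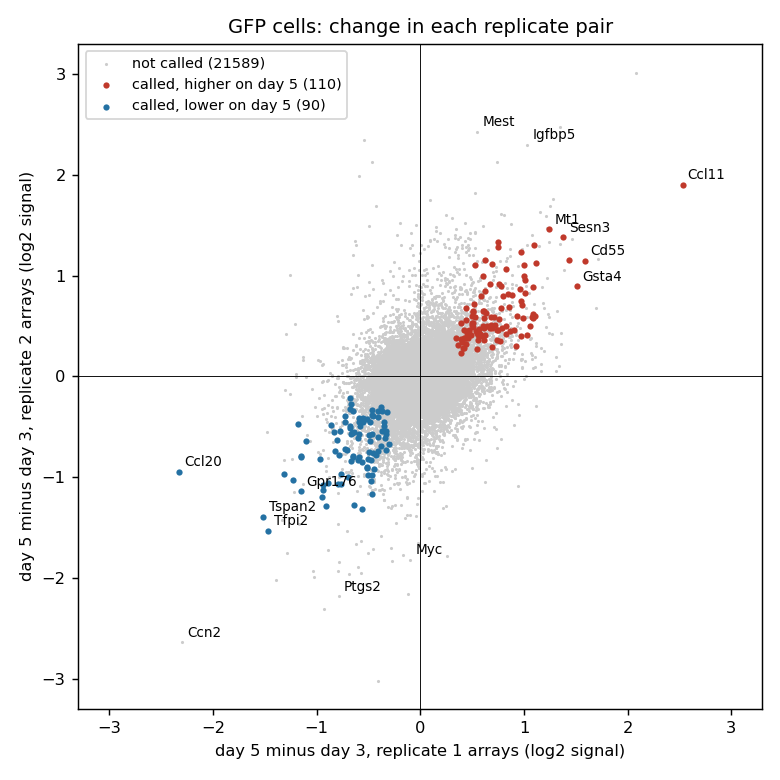
Each point is a probe set, with day 5 minus day 3 in the replicate 1 arrays on the horizontal axis and in the replicate 2 arrays on the vertical axis (log2 signal); red and blue points are the 110 and 90 probe sets called higher and lower on day 5. Ccl11 lies farthest out among the called rises, and Ccn2, at the lower left, is not called although its signal was lower on day 5 in both pairs.

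Ccl11 encodes eotaxin, a chemokine that draws eosinophils. Its signal was 10.2 and 9.26 on day 5, against 7.69 and 7.36 on day 3. Both day 5 arrays stood above both day 3 arrays, with a log2 change of 2.21 ± 0.35 (SE, n = 2 per day, limma adjusted p = 0.0177). Sesn3, a sestrin that FoxO factors induce and that restrains mTORC1, read 9.58 and 8.98 on day 5 and 8.20 and 7.59 on day 3. It rose by 1.38 ± 0.23 (limma adjusted p = 0.0203), with the same step in each pair. Mt1, a metal-binding metallothionein, read 11.7 and 11.8 on day 5 and 10.5 and 10.3 on day 3, so its groups were far apart for their spread. Its change was 1.35 ± 0.20 (limma adjusted p = 0.0177).

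The other large rises fall into a few kinds of gene. Cd55, which protects cells from complement, rose by 1.37, and Serpinb1a, an inhibitor of neutrophil proteases, by 1.30. Gsta4, a glutathione transferase for lipid peroxidation products, rose by 1.20, and Adh1, an alcohol dehydrogenase, by 1.04. Hgf, the hepatocyte growth factor that mesenchymal cells secrete, read 8.11 and 7.82 on day 5, against 6.99 and 6.69 on day 3, and rose by 1.13 ± 0.23. The Kit ligand gene Kitl also rose, by 0.98. Klhl24, a substrate adaptor of a ubiquitin ligase, rose by 1.20, Rab3il1, an exchange factor for Rab GTPases, by 1.10, Ptprv, a receptor-type phosphatase gene that p53 induces in the mouse, by 1.06, and Cped1 by 1.02. In all of these both day 5 arrays lay above both day 3 arrays, which the choice of called genes favours. The smallest adjusted p of the table was that of Gdpd1, a lysophospholipase D, at 0.0015. Its signal was 7.03 and 7.02 on day 5 and 6.18 and 6.20 on day 3, a change of 0.83 ± 0.08. Sulf2, a secreted enzyme that removes sulfate from heparan sulfate, and Bhlhe41, a repressor of the circadian clock, followed with 0.84 each and adjusted p of 0.00621 and 0.0132 by limma.

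The largest called fall was that of Ccl20, the ligand of the chemokine receptor CCR6. It read 6.26 and 6.96 on day 5, against 8.59 and 7.91 on day 3. The groups did not overlap, and the change was −1.64 ± 0.25 (SE, n = 2 per day, limma adjusted p = 0.0177). Tfpi2, a secreted protease inhibitor, read 7.29 and 6.85 on day 5, against 8.76 and 8.38 on day 3, a change of −1.50. The tetraspanin gene Tspan2 read 6.53 and 7.37 on day 5 and 8.05 and 8.76 on day 3, a change of −1.46. Day 5 lay below day 3 in both genes, and Tspan2 read higher in replicate 2 on both days.

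Among the further falls were membrane and signalling genes. Gpr176, an orphan receptor of the circadian clock, fell by 1.15 and the cation channel Trpv2 by 1.14. Mgll, which breaks down the endocannabinoid 2-AG, fell by 1.13, B3gnt5, which starts the lacto-series glycolipids, by 1.10, and Bok, a Bcl-2 family effector of cell death, by 1.03. Jph2, a junctophilin that ties plasma membrane to sarcoplasmic reticulum in muscle, read 6.95 and 7.01 on day 5, against 7.88 and 8.09 on day 3, and fell by 1.01 ± 0.14. Nuak1, an AMPK-related kinase, fell by 0.98, the intermediate filament gene Nes by 0.97, and Lims2, an adaptor of integrin adhesions, by 0.97. Fscn1, which bundles actin in protrusions, read 10.2 in each day 5 array and 11.0 and 11.3 on day 3, and fell by 0.92. The called falls of H4c6, H4c4, H4f16 and Rpl12 are uncertain, since histone H4 genes and ribosomal protein pseudogenes share nearly the same sequence.

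**Figure D2:**
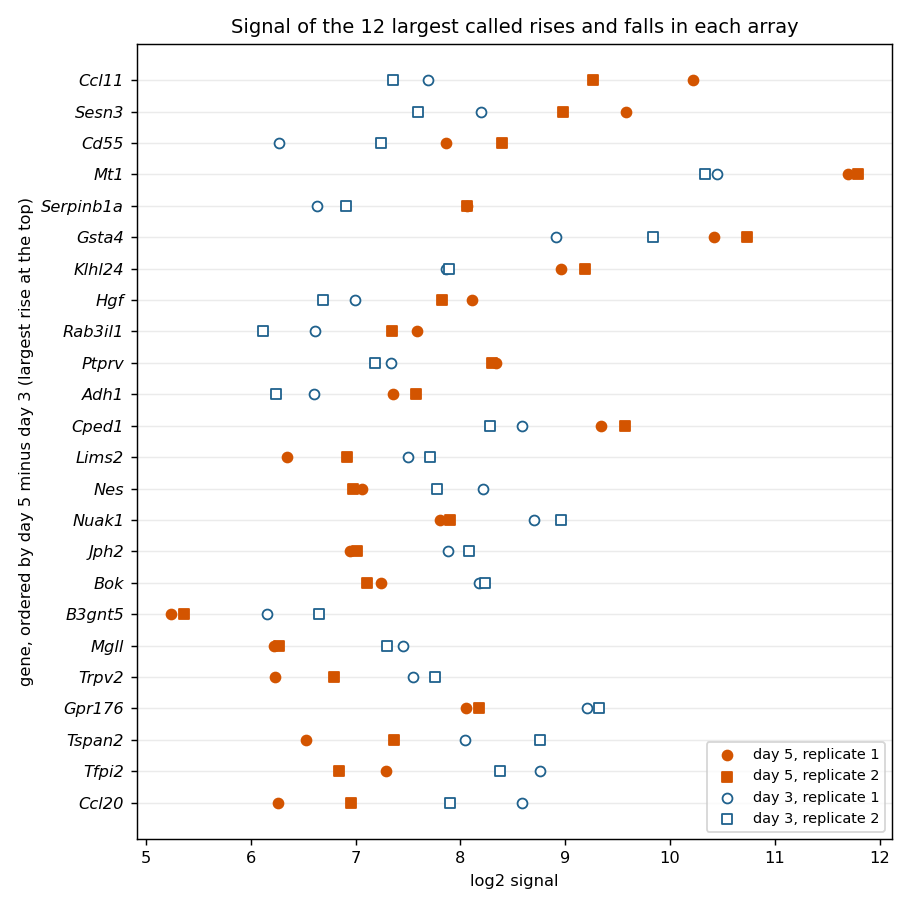
Log2 signal of the 12 largest called rises (upper rows) and the 12 largest called falls (lower rows) in each of the 4 GFP arrays; filled marks are day 5 and open marks day 3, with circles for replicate 1 and squares for replicate 2. In no row do filled and open marks overlap, which the choice of called genes favours.

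Nucleolar ribosome assembly had the most calls of the 34 gene lists. The nucleolus makes ribosomal RNA and joins it with proteins, with the help of snoRNP cores, RNA methylases and processing factors. Of 44 measured genes of this list, 8 were called lower and 0 higher, 18.2% called against 0.918% of all probe sets. There were 39 lower in both replicate pairs (88.6%, against 29.8% of all). Their median change was −0.42, with −0.32 in pair 1 and −0.52 in pair 2. Mybbp1a, a Myb-binding protein of the nucleolus that takes part in rRNA transcription and processing, read 9.14 and 8.91 on day 5 and 9.85 and 9.64 on day 3, a change of −0.72 ± 0.15 (limma adjusted p = 0.0417). Nop56, a core protein of box C/D snoRNPs, read 9.82 and 9.91 on day 5 and 10.7 and 10.5 on day 3, a change of −0.70 ± 0.12 (limma adjusted p = 0.023). Both genes had each day 5 array below each day 3 array.

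The remaining called members carry out other steps of the same assembly line. Rrs1, which brings in the 5S particle, fell by 0.72, and Dkc1, the pseudouridine synthase of box H/ACA snoRNPs, by 0.61. Its partner Gar1 also fell by 0.61. Nop2, which methylates 28S rRNA, read 8.46 and 8.53 on day 5 and 9.06 and 9.14 on day 3, and fell by 0.61 ± 0.10. Rrp1b and the 18S rRNA methylase Dimt1 each fell by 0.54. The abundant nucleolar proteins moved less, with Npm1 at −0.04, Ncl at −0.27 and Fbl at −0.35, none of them called. The exceptions in sign were Nop10 at 0.05, Noc3l at 0.07 and the polymerase I and III subunit gene Polr1c at 0.12, also not called. Several called genes outside the list have related roles: Grwd1 fell by 0.78, Rrp8 by 0.70, Wdr74 by 0.50 and Eif6, which holds the large subunit back from joining, by 0.50. They were picked out after their values were seen.

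The core promoter sequence of a called member is shown because nucleolar genes are known Myc targets and Myc binds the E-box CACGTG. In RefSeq windows of 300 bases around the start of transcription (250 before and 50 after, build GRCm38.p6), CACGTG stood in 10 of 39 matched nucleolar genes (25.6%), against 7.24% of all 27025 windows. The motif reads the same on both strands. Nop2 has it in capitals below, 60 bases before the start (chr6:125131633-125131932, plus strand). A match is a description of the letters and not a measured site.
Nop2: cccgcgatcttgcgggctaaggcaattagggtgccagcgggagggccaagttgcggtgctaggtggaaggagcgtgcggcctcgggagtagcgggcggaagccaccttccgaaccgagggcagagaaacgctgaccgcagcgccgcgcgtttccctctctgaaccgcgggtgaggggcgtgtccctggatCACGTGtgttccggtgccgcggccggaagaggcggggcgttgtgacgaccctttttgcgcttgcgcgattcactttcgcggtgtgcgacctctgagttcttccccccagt

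Nucleotide synthesis, which supplies both RNA and DNA, had 29 measured genes, with 2 called lower (against 0.413% of all) and 0 higher. Umps, which makes UMP, read 8.68 and 8.34 on day 5, against 9.12 and 9.26 on day 3, and fell by 0.68 ± 0.14. Prps1, which makes the ribose phosphate donor PRPP, fell by 0.66. Rrm2, the regulated subunit of ribonucleotide reductase, had the largest difference of the list at −1.14 ± 0.34 but did not pass (limma adjusted p = 0.127). Its signal was 9.33 and 8.65 on day 5 and 9.94 and 10.3 on day 3, without overlap. The list median was −0.35, and 22 members were lower in both pairs (75.9%, against 29.8% of all).

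Replication and mitosis genes lay lower on day 5 without any single gene being called. For DNA replication, 0 of 40 genes passed limma's adjusted p in either direction. An unadjusted p under 0.05 was found for 27, all lower, against 3356 of all 21789 probe sets in either direction. There were 34 lower in both pairs (85.0%, against 29.8% of all), and the median was −0.42. The pairs differed in size, with medians of −0.19 in pair 1 and −0.69 in pair 2, and without day 5 replicate 2 the median was −0.26. Mcm5, a subunit of the replicative helicase, read 8.15 and 7.32 on day 5 and 8.70 and 8.29 on day 3, a difference of −0.76 ± 0.18 (limma adjusted p = 0.0611). Rpa2, of the single-strand binding complex, was nearest to the threshold with −0.73 ± 0.16 (limma adjusted p = 0.0504). The helicase subunit Mcm2 differed by −0.62 and the sliding clamp Pcna by −0.54. Pcna read 9.70 and 9.36 on day 5, against 9.96 and 10.2 on day 3, again without overlap.

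For mitosis and the spindle, 0 of 44 genes passed. An unadjusted p under 0.05 was found for 10, all lower, against 3356 of all 21789 probe sets in either direction. There were 36 lower in both pairs (81.8%, against 29.8% of all) and the median was −0.41, with −0.14 in pair 1 and −0.68 in pair 2. Without replicate 2 of day 5 the list median was −0.12, and without replicate 1 of day 5 it was −0.71. Cdk1, the kinase that starts mitosis, read 9.28 and 8.60 on day 5 and 9.79 and 9.77 on day 3. Its difference of −0.84 ± 0.25 did not pass (limma adjusted p = 0.127). Birc5, or survivin, differed by −0.67, Cdc20, an activator of the anaphase-promoting complex, by −0.65, and Mki67, the source of the Ki-67 antigen, by −0.48. Homologous recombination and Fanconi genes had a median of −0.29 over 17 genes with 0 calls (limma) and 5 at an unadjusted p under 0.05, and a median of −0.19 without day 5 replicate 2.

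Mitotic genes are known to share promoter elements read by the DREAM and B-Myb complexes, so the promoter of Cdk1 is given. The element TTTGAA (CHR), on either strand, stood in 27 of 38 matched mitosis windows (71.1%), against 18.1% of all windows and 6 of 30 replication windows (20.0%). CCAAT stood in 28 of the 38 (73.7%), against 37.9% of all. TTTNNCGC, an E2F type motif, stood in 13 of 30 replication windows (43.3%), against 5.27% of all. Cdk1 holds TTTGAA 71 and 15 bases before its start, in capitals below (chr10:69352863-69353162, minus strand, RefSeq, GRCm38.p6).
Cdk1: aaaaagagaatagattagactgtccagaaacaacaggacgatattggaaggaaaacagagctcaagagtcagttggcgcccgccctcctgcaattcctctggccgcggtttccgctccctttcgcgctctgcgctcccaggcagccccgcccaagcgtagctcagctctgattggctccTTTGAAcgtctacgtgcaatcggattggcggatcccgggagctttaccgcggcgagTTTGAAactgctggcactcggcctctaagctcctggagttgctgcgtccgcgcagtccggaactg

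Among cyclins, cyclin-dependent kinases and E2F genes, 1 of 21 was called, and it was lower (4.76%, against 0.413% of all called lower). The median was −0.40, and −0.25 without day 5 replicate 2. This was Mybl2, the gene of B-Myb, which drives genes of the G2 and M phases. It read 7.22 and 6.69 on day 5, against 8.01 and 7.76 on day 3, a change of −0.93 ± 0.17 (limma adjusted p = 0.0293). The S phase cyclin gene Ccne1 differed by −0.64 (limma adjusted p = 0.0542), Ccna2 by −0.77, E2f1 by −0.25 and Ccnd1 by −0.31, none of which passed. Ccnd1 overlapped between the days, at 9.86 and 9.60 on day 5 and 9.71 and 10.4 on day 3. Ccnd2, another D-type cyclin gene, was on the opposite side with 0.25.

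CDK inhibitors and p53 targets had 1 call among 19 measured genes, a rise (5.26%, against 0.505% of all called higher), and a median of 0.32. Ccng1, a p53 target cyclin gene, read 11.9 and 12.3 on day 5 and 11.4 and 11.9 on day 3. It rose by 0.45 ± 0.09 (limma adjusted p = 0.0411), a step of the same size in each pair on arrays that differed as much between replicates. Trp53inp1, a p53-induced nuclear protein, differed by 0.91 and the inhibitor Cdkn1c (p57) by 0.89, neither called. Cdkn1b (p27) differed by 0.32, Cdkn2a by 0.35 and Cdkn2b by 0.18. In both pairs 11 of the 19 were higher (57.9%, against 27.8% of all) and 4 lower (21.1%, against 29.8% of all). The lowest member differed by −0.53, and of 10 at an unadjusted p under 0.05, 8 were higher and 2 lower. Cdkn1a and Trp53 had no row with a single gene symbol and were not analysed. For growth arrest genes and FoxO targets, 2 of 20 were called, both rises (10.0%, against 0.505% of all called higher), and the median was 0.35. It was 0.18 without day 5 replicate 1 and 0.15 without day 3 replicate 2. Beside Sesn3 this was Txnip, which inhibits thioredoxin and glucose uptake. Txnip read 9.61 and 9.38 on day 5 and 8.51 and 8.80 on day 3, and rose by 0.84 ± 0.18. The growth arrest genes Gas2 and Ccng2 differed by 1.05 and 0.72 without passing. Cited2 lay the other way, at −0.76.

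GTAAACA, a FoxO binding motif, stood on either strand in 3 of 17 matched windows of that list (17.6%), against 3.55% of all. Txnip is 1 of the 3 and is shown because it was also called, with the motif 121 bases before its start in capitals (chr3:96557707-96558006, plus strand, RefSeq, GRCm38.p6).
Txnip: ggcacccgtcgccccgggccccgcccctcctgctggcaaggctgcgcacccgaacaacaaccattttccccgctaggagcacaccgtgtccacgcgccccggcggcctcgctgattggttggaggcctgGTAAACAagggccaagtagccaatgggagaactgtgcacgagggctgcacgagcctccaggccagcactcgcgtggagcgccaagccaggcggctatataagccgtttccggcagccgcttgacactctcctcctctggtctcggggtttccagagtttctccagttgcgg

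Lysosome and autophagy genes stood higher on day 5 almost throughout the list. There were 27 of 30 higher in both pairs (90.0%, against 27.8% of all), with a median of 0.35 (0.26 in pair 1 and 0.44 in pair 2). Of the 30, 1 was called higher (3.33%, against 0.505% of all) and 0 lower, and 17 had an unadjusted p under 0.05, all higher. The call was Lamp1, the main glycoprotein of the lysosomal membrane, which read 11.0 and 11.2 on day 5 and 10.6 and 10.7 on day 3. It rose by 0.44 ± 0.10 (limma adjusted p = 0.0487), with no overlap. The galactosidase gene Gla differed by 0.90, the collagen-degrading cathepsin gene Ctsk by 0.88 and the peptidase gene Tpp1 by 0.64, none of which passed. Tfeb, a master regulator of these genes by its protein, was at −0.13.

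Lysosomal genes are known to carry CLEAR elements, which hold the same CACGTG core, and Lamp1 shows it plainly. CACGTG stood in 8 of 25 matched lysosome windows (32.0%), against 7.24% of all. The Lamp1 window holds 4 copies, 61, 45, 28 and 15 bases before the start (chr8:13158911-13159210, plus strand, RefSeq, GRCm38.p6). The nucleolar and lysosomal lists thus held the same letters while their medians had opposite signs.
Lamp1: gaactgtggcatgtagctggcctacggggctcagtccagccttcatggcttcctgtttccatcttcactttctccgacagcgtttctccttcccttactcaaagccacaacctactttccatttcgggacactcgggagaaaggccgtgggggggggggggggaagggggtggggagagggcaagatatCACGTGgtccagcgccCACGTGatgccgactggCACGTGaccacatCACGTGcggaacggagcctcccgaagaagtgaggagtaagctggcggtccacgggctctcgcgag

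Glutathione and detoxification genes had 3 calls among 24 measured, all rises (12.5%, against 0.505% of all called higher), and 13 were higher in both pairs (54.2%, against 27.8% of all). The median was 0.24, and 0.40 without day 5 replicate 2. Beside Gsta4 and Adh1 this was Gstm1, a glutathione transferase, at 7.98 and 7.88 on day 5 and 7.10 and 7.07 on day 3, a rise of 0.85 ± 0.18. Gsta4 read 10.4 and 10.7 on day 5, against 8.91 and 9.84 on day 3. Nqo1, Gclm and Txnrd1 were at 0.21, −0.03 and −0.15, not called. Mt2 differed by 0.87 without passing, in the direction of Mt1. Metallothionein genes are known to answer zinc through MTF1 at TGCGCNC or TGCACNC, which stood on either strand in 25.6% of all windows. The Mt1 window holds it at 23 bases before and at 3 and 21 bases after the start that RefSeq lists (chr8:94178839-94179138, plus strand, GRCm38.p6). Where transcription starts in these cells was not measured, so the positions do not place the motif inside the transcript.
Mt1: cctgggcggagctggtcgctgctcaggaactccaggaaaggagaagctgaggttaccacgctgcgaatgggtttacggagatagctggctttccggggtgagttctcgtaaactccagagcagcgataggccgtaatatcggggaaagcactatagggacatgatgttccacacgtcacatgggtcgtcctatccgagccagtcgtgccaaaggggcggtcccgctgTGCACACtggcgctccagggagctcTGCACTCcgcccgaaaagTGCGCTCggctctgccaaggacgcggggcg

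Other metabolic lists gave no call. Glycolysis genes had a median of −0.08 over 18 genes, with 0 calls (limma) and 6 at an unadjusted p under 0.05. Hk2, which commits glucose in the cell, differed by −0.84, and the lactate exporter gene Slc16a3 by −0.84. Oxidative phosphorylation genes had a median of −0.14 over 33 genes, with 8 at an unadjusted p under 0.05 (against 3356 of all 21789). Cholesterol and fatty acid synthesis genes had −0.18 over 26, with 1 at such a p. With 1 array left out these medians lay between −0.13 and −0.02, and between −0.32 and −0.10. The tRNA synthetase and ATF4 list had a median of 0.04, but its pairs had opposite signs, −0.35 in pair 1 and 0.39 in pair 2. Trib3, an ATF4 target, read 8.14 and 8.80 on day 5 and 8.68 and 6.45 on day 3, so replicate 2 of day 3 was low, and the difference was 0.91.

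**Figure D3:**
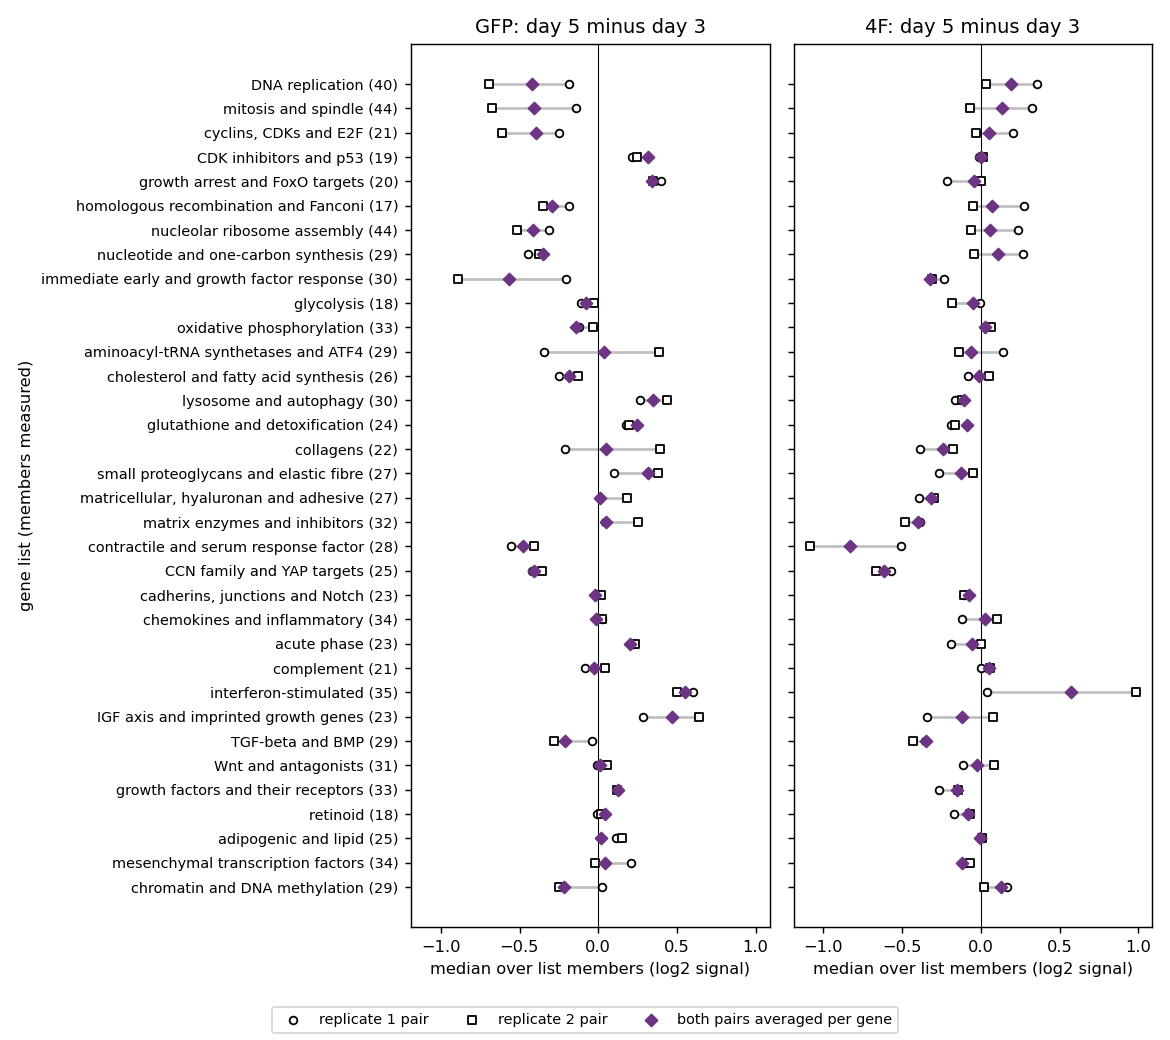
Median change over the members of each gene list, day 5 minus day 3 (log2 signal), in GFP cells (left panel) and in 4F cells (right panel); circles and squares are the replicate 1 and replicate 2 pairs and diamonds the median of the pair averages. In GFP cells DNA replication, mitosis and nucleolar genes lie left of 0 and lysosome, interferon and IGF genes right of it, and contractile genes lie left of 0 in both arms.

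Genes of the contractile cytoskeleton were lower on day 5. Of 28 measured members, 24 were lower in both pairs (85.7%, against 29.8% of all). The median was −0.48 (−0.55 in pair 1 and −0.41 in pair 2), and 1 was called lower (3.57%, against 0.413% of all). Smtn, a smoothelin of smooth muscle stress fibres, read 8.21 and 7.85 on day 5 and 8.54 and 8.58 on day 3, a fall of 0.53 ± 0.11. The calponin gene Cnn1 differed by −1.10, the myosin light chain gene Myl9 by −0.94, Tagln by −0.62 and Acta2, or smooth muscle actin, by −0.36, none of which passed. The skeletal muscle marker sum, whose brightest member is Acta1, was also lower on day 5 in both pairs (8.84 and 9.18, against 9.20 and 9.59 on day 3), and its part in the result was not tested. Outside the list Ilk, a kinase of integrin adhesions, fell by 0.48, and the integrin gene Itga8 fell by 0.96, and both were named after their values were seen.

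The CCN family and YAP targets held the largest difference of all the genes named here, and it was not called. Ccn2, a matricellular protein and classic YAP target, read 9.48 and 10.0 on day 5, against 11.8 and 12.7 on day 3. That is −2.47 ± 0.96 (SE, n = 2 per day, limma adjusted p = 0.234). The days did not overlap, but the gene varied widely between replicates elsewhere, at 8.19 and 13.1 on GFP day 8. Ccn1 differed by −1.52 and Ankrd1, a muscle ankyrin repeat protein, by −1.48. Of 25 genes 0 were called (limma) and 9 had an unadjusted p under 0.05, all lower, with a median of −0.41. GGAATG, the TEAD motif, stood on either strand in 9 of 18 matched windows, against 14.6% of all.

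Immediate early genes, which serum switches on within minutes, had a median of −0.57 over 30 genes, with 0 calls (limma) and 11 at an unadjusted p under 0.05, all lower. Their pairs differed widely, with −0.21 in pair 1 and −0.89 in pair 2. Replicate 2 of day 3 was the high array. Myc read 7.65 and 7.76 on day 5, and 7.75 and 9.58 on day 3. Egr1 read 6.60 and 6.41 on day 5, and 7.21 and 8.30 on day 3. Fos read 6.40 and 6.25 on day 5, and 6.43 and 7.52 on day 3. Myc therefore overlapped between the days, and its difference of −0.96 ± 0.48 did not pass (limma adjusted p = 0.368). Without that array the list median was −0.41, and without day 5 replicate 1 or 2 it was −0.86 or −0.34. Hbegf, an EGF receptor ligand, differed by −1.51 and the phosphatase gene Dusp1 by −1.33, with no overlap and no call.

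Secreted signals moved gene by gene. Chemokines and inflammatory genes had 1 rise (Ccl11) and 2 falls among 34 genes (8.82% called, against 0.918% of all), and a median of −0.01. The second fall was Csf1, the macrophage growth factor, which read 9.14 and 9.53 on day 5 and 9.62 and 10.6 on day 3, a fall of 0.76 ± 0.17 (limma adjusted p = 0.0496). Cxcl12 differed by 0.51 without passing. Growth factors and their receptors had 2 calls among 33 (6.06%, against 0.505% of all called higher), the rises of Hgf and Kitl. Their median was 0.13, and Angpt1, the Tie2 ligand, differed by 1.41 (limma adjusted p = 0.0759). Among 21 complement genes 1 was called (4.76%, against 0.918% of all). It was Cd55, which read 7.86 and 8.39 on day 5 and 6.27 and 7.24 on day 3. Among 23 acute phase genes the call was Mt1 (4.35%, against 0.918% of all). The median of 0.20 was 0.02 without day 5 replicate 1 and 0.47 without day 5 replicate 2. Saa3 and Lcn2 differed by 0.62 and 0.72 with overlap between the days. Lcn2 read 8.52 and 6.27 on day 5 and 7.33 and 6.01 on day 3, so its replicates were farther apart than its days. Inhba, the activin subunit gene, differed by −1.71, with 8.41 and 9.20 on day 5 and 9.81 and 11.2 on day 3, and was not called (limma adjusted p = 0.141).

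Interferon-stimulated genes had a list median of 0.55 and no call. The median was 0.26 without day 5 replicate 1, 0.35 without day 3 replicate 2, 0.78 without day 5 replicate 2 and 0.80 without day 3 replicate 1. Of 35 genes 30 were higher in both pairs (85.7%, against 27.8% of all), with 0.60 in pair 1 and 0.50 in pair 2. Of the 35, limma called 0, and 2 had an unadjusted p under 0.05, against 3356 of all 21789 probe sets. Ifit1, which binds viral RNA, read 6.98 and 7.12 on day 5, against 5.74 and 5.43 on day 3, a difference of 1.47 ± 0.70 (limma adjusted p = 0.336). Oasl2 differed by 1.39 ± 0.84 and the GTPase gene Gbp3 by 1.16 ± 1.01. These standard errors come from the spread within all replicated groups. The core of the interferon-stimulated response element, GAAA and a second GAAA after any 2 bases, stood on either strand in 14 of 27 matched windows (51.9%), against 3.49% of all.

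IGF axis and imprinted growth genes had a median of 0.47 over 23 genes (0.28 in pair 1 and 0.64 in pair 2), and of 0.25 without day 3 replicate 2. Of these limma called 0, and 12 had an unadjusted p under 0.05, 11 of them higher. Igfbp5, an IGF-binding protein of resting mesenchyme, read 9.89 and 9.72 on day 5 and 8.87 and 7.42 on day 3, a difference of 1.66 ± 0.62 (limma adjusted p = 0.207). Igf1 differed by 1.19, and Mest, a paternally expressed gene, by 1.49 with overlap. Mest read 11.8 and 11.0 on day 5 and 11.2 and 8.53 on day 3, where replicate 2 of day 3 was low. Dlk1, another imprinted gene, lay the other way at −1.02.

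Matrix genes gave no call in 4 lists. Matricellular and hyaluronan genes had a median of 0.01 over 27 genes and matrix enzymes and inhibitors 0.05 over 32, with 5 and 8 at an unadjusted p under 0.05. Collagens had a median of 0.05 over 22 genes, with −0.21 in pair 1 and 0.39 in pair 2, and 0 at an unadjusted p under 0.05. Without day 3 replicate 2 the collagen median was −0.19, and without day 3 replicate 1 it was 0.31. Col1a1 read 13.3 and 13.4 on day 5 and 13.6 and 13.2 on day 3, and Col3a1 13.0 and 12.9 on day 5 and 13.1 and 12.1 on day 3. Both overlapped. Small proteoglycans and elastic fibre genes had a median of 0.32 over 27 genes and 3 at an unadjusted p under 0.05. This median was 0.10 without day 3 replicate 2, 0.14 without day 5 replicate 1 and 0.17 without day 5 replicate 2. Dcn, or decorin, differed by 0.56 and Lum, or lumican, by 0.54. The tissue plasminogen activator gene Plat, in the list of matrix enzymes, was near the threshold with 1.21 ± 0.27 (limma adjusted p = 0.0513), and Mmp9 differed by −1.03 with overlap. TGF-beta and BMP genes had a median of −0.21 and chromatin and DNA methylation genes −0.22, each over 29 genes with 0 calls (limma), and 11 and 10 at an unadjusted p under 0.05. Without day 5 replicate 2 these medians were −0.08 and −0.06, and without day 3 replicate 2 they were −0.08 and −0.06 as well. Lists of mesenchymal transcription factors, retinoid, adipogenic, Wnt and junction genes had medians between −0.02 and 0.04 and 0 calls (limma). Each had between 2 and 8 genes at an unadjusted p under 0.05, against 3356 of all 21789 probe sets. Lpl, lipoprotein lipase, was the largest difference of the adipogenic list at 1.24 (limma adjusted p = 0.0704), and Pparg was at −0.33.

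The change from day 3 to day 5 was then tested against that of 4F cells. Between the arms 4 of 21789 probe sets differed (limma, 0.0184%), with 3021 at an unadjusted p under 0.05. Among these, Myof, a membrane repair ferlin, was at 0.24 ± 0.13 in GFP cells and −1.10 in 4F cells, a difference of 1.34 ± 0.18 (limma adjusted p = 0.0354). H4f16 was at −0.54 in GFP cells and 0.32 in 4F cells (limma adjusted p = 0.0253). This call is uncertain, since histone H4 genes share nearly the same sequence. Slc38a5, an amino acid transporter gene, was at −0.14 and 1.60 (limma adjusted p = 0.0355). Rangrf, a Ran-binding protein, gave the remaining call on 1 of its 3 probe sets, at −0.60 in GFP cells and 0.73 in 4F cells (limma adjusted p = 0.0488). Its other probe sets lay in the same direction, with adjusted p of 0.0501 each.

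The genes called in GFP cells did not as a set go the same way in 4F cells. Of the 110 higher in GFP cells, 35 were higher in both 4F pairs (31.8%) and 37 lower in both (33.6%), against 29.8% and 26.8% of all probe sets. Of the 90 lower, 28 were lower in both 4F pairs (31.1%) and 31 higher in both (34.4%). Of these 200, 1 was called for a difference between the arms, H4f16, which is among the lower and is uncertain for its shared sequence. Nop2 was at −0.61 in GFP cells and −0.01 in 4F cells, Mybl2 at −0.93 and 0.02, Klhl24 at 1.20 and −0.15, and Gsta4 at 1.20 and −0.49, with no call on these differences. DNA replication had a median of −0.42 in GFP cells and 0.19 in 4F cells, and lysosome genes 0.35 and −0.10, and these list differences were not tested. Contractile genes were low on day 5 in both arms, at −0.48 in GFP cells and −0.83 in 4F cells, as was the CCN and YAP list at −0.41 and −0.62. The interferon median of 0.55 in GFP cells stood beside 0.57 in 4F cells, which came from pair 2 (0.04 in pair 1 and 0.99 in pair 2). In 3F cells, with 1 array per day and no test, 95 of the 110 and 73 of the 90 had the sign of the GFP change, with medians of 0.19 and −0.17. The share of all probe sets with the GFP sign in 3F cells was not counted, so these counts have nothing to be set against.

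The lists differed in how the step to day 5 sat in the longer GFP course. Set against uninfected day 0, the DNA replication median was −0.49 on day 1, −0.46 on day 3, −0.85 on day 5, −1.50 on day 8 and −1.44 on day 12. Mitosis genes were at −0.23, −0.32, −0.77, −1.81 and −1.63 on the same days, and nucleolar genes at −0.57, −0.41, −0.78, −1.19 and −1.31. The nucleolar median was thus already low on day 1. Lysosome genes were at 0.23, 0.25, 0.64, 0.84 and 0.98, and interferon genes at 0.15, 0.04, 0.59, 0.73 and 0.72. Contractile genes were near the uninfected level until day 3 (−0.05 on day 1 and 0.04 on day 3) and at −0.37 on day 5, −0.79 on day 8 and −0.85 on day 12. Immediate early genes did not keep their day 5 level, at −0.36 on day 3, −1.08 on day 5, −0.43 on day 8 and −1.07 on day 12. The CCN and YAP list was at 0.01 on day 3, −0.37 on day 5, −0.26 on day 8 and −0.70 on day 12. Day 12 has 1 array, labelled from 300 ng of RNA, while each other day averages an array from 120 ng and an array from 300 ng. The part of the label amount in the day 12 values was not tested. The day 5 and day 3 values here come from the same arrays as the comparison, so the course adds no separate evidence for it.

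**Figure D4:**
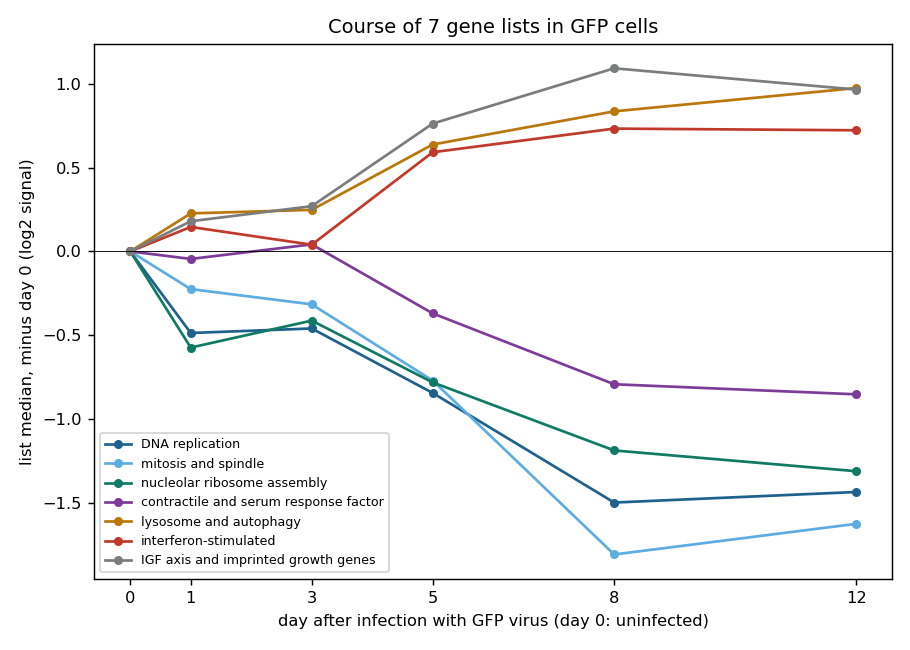
Median over the members of 7 gene lists in GFP cells as log2 signal minus that of uninfected cells (vertical axis), by day (horizontal axis); each point is the median of group means over 2 arrays, or 1 array on day 12. DNA replication, mitosis and nucleolar genes lie at −0.85, −0.77 and −0.78 on day 5, against −0.46, −0.32 and −0.41 on day 3, and lysosome and interferon genes at 0.64 and 0.59, against 0.25 and 0.04.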

How the data were processed

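Mouse embryonic fibroblasts were profiled on 31 Affymetrix single-colour arrays. Per the labels' protocols, biotin-labelled sense targets were made from 120 ng (replicate 1) or 300 ng of RNA. The authors deposited 1 table of log2 signals (4.27 to 14.3, column medians 6.04 to 6.17). Its normalization, software and genome build are not given in the sources used here, and it holds no detection calls. Of 28853 rows, 21789 carry 1 symbol in the platform annotation, 1621 several and 5443 none, and the Entrez IDs of 21698 were found in RefSeq. These are 19938 genes, and where a gene had several rows (999 genes) the lists take the brightest on average.

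The log2 values were used as deposited. limma 3.58.1 in R 4.3.3 was fitted to all 31 arrays with 1 mean per group and the replicate number as a block (11 residual degrees of freedom, 3.16 prior), with Benjamini-Hochberg adjustment over all 21789 rows, and called at an adjusted p under 0.05. The fit was tested on simulated data. The block separates replicate 2 from replicate 1 in the 12 groups with 2 arrays, which per the labels' protocols were labelled from different amounts of RNA. The pairing was checked by correlating replicate differences: r was 0.306 between GFP day 5 and day 3, and between 0.085 and 0.675 over 66 pairs of replicated groups, with 65 over 0.1. The labels call replicates biological without naming embryos or cultures, so p-values measure the spread between these arrays. The number of arrays limits the precision.

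The comparison, the 34 gene lists (932 different measured genes) and the tests were chosen with earlier results of these data known, so a list's direction is no independent support. Named genes are the 12 largest called rises and falls, up to 5 called and the largest uncalled members of each list, a fixed set of growth, matrix and signal genes, and the genes called between the arms. Any other named gene was chosen after its values were seen. Alternatives were no replicate block, GFP arrays or the 4 arrays alone, quantile normalization, bright probe sets, 1 row per gene, a variance trend, array weights and each array left out.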

Additional observations from a re-analysis of the deposited data

Results flagged for a closer look

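Of the changes from day 3 to day 5, 4 differed between GFP and 4F cells by limma's test of the difference, given as the GFP change minus the 4F change. Myof was at 1.34, Slc38a5 at −1.73, H4f16 at −0.86 and 1 probe set of Rangrf at −1.33. The H4f16 value is uncertain, since histone H4 genes share nearly the same sequence. The Slc38a5 signal was 5.64 and 5.33 on day 5 and 5.79 and 5.45 on day 3 in GFP cells, and 7.49 and 7.84 on day 5 and 6.07 and 6.06 on day 3 in 4F cells. For Slc38a5 and Myof the GFP days overlapped and the 4F days did not.

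In 8 gene lists the median lay on one side of 0 in both GFP pairs and on the other side in both 4F pairs, and these differences were not tested. DNA replication had a median of −0.42 in GFP cells and 0.19 in 4F cells. Oxidative phosphorylation was at −0.14 in GFP cells and 0.03 in 4F cells, lysosome and autophagy at 0.35 and −0.10, and glutathione and detoxification at 0.24 and −0.09. Small proteoglycans and elastic fibre were at 0.32 in GFP cells and −0.12 in 4F cells, matricellular and hyaluronan genes at 0.01 and −0.32, matrix enzymes at 0.05 and −0.40, and growth factors and receptors at 0.13 and −0.15. The GFP medians of 0.01 and 0.05 lie close to 0, and that of small proteoglycans was between 0.10 and 0.36 with 1 array left out.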

How the results depend on the processing

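The count of 200 called probe sets depended on how the spread was estimated. Without the replicate block it was 35, with GFP arrays only or the 4 compared arrays only it was 0, and with array quality weights it was 3. Leaving out 1 array gave between 10 (without day 5 replicate 1) and 80 (without day 3 replicate 2), with 64 without day 5 replicate 2 and 68 without day 3 replicate 1. Quantile normalization gave 241, bright probe sets 253, 1 row per gene 229 and a variance trend 146, of which 179, 164, 192 and 131 were among the 200. The fits on fewer arrays have fewer residual degrees of freedom, and the cause of the other differences was not tested. The 4 calls between the arms became 0 without the replicate block and on the 8 compared arrays alone, 14 under quantile normalization, 62 on bright probe sets, 49 with 1 row per gene and 11 with a variance trend, and ranged from 0 to 34 with 1 array left out.

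Of 40 called named genes, 0 changed direction under any of 12 alternatives, 37 were called after quantile normalization and 10 without the block. On GFP arrays only, the 4 arrays only or with array quality weights 0 of the 40 were called, and with 1 array left out between 2 and 10. Among 130 uncalled named genes, the difference changed sign in 12 when 1 array was left out. Over the arrays left out the values ranged from −0.687 to 0.012 in Hes1 (above 0 without day 3 replicate 2), from −0.381 to 0.025 in Sox2, from −0.357 to 0.086 in Slc38a5, from −0.234 to 0.145 in Col1a1 and from −0.146 to 0.265 in Klf4. Without day 3 replicate 2 they were lowest in Gas1 (−0.006, up to 0.604), Col3a1 (−0.087, up to 0.726), Cfb (−0.24, up to 0.976), Col11a1 (−0.094, up to 0.933), Saa3 (−0.054, up to 1.30) and Trib3 (−0.251, up to 2.06). Lcn2 ranged from −0.274 without day 5 replicate 1 to 1.72 without day 5 replicate 2.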

Other observations

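Several of the called rises were genes of the primary cilium, the antenna that many resting cells carry. A list of intraflagellar transport, BBSome and transition zone genes was written after the called genes had been seen, so its counts are a description and no support. Of 48 measured genes 8 were called higher (against 0.505% of all) and 0 lower, 32 were higher in both pairs (66.7%, against 27.8% of all probe sets), and the median was 0.26. Dzip1, a protein of the ciliary base, read 8.08 and 7.95 on day 5 and 7.12 and 7.07 on day 3, and rose by 0.92 ± 0.14 (limma adjusted p = 0.0177). Wdr19, a subunit of the retrograde transport complex, rose by 0.77 and Ift80, of the anterograde complex, by 0.68. The BBSome genes Bbs9 and Bbs2 rose by 0.62 and 0.57, and the transition zone gene Tmem67 by 0.55. The median of this list was −0.02 in 4F cells, a difference that was not tested.

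Further lists written in the same way had 18 genes of mitochondrial fatty acid oxidation and 33 measured genes of the nuclear pore and the Ran cycle. Of the 18, 3 were called higher (against 0.505% of all) and 0 lower, 13 were higher in both pairs (72.2%, against 27.8% of all), and the median was 0.30. They were Cpt1a, the carnitine transferase that admits fatty acids to the mitochondrion (0.56), Eci2 (0.49) and Hadha (0.48). Of the 33, 5 were called lower (against 0.413% of all) and 0 higher, 24 were lower in both pairs (72.7%, against 29.8% of all), and the median was −0.32. Ran, the GTPase of nuclear transport, read 10.5 and 10.1 on day 5 and 10.8 on both day 3 arrays, and fell by 0.48 ± 0.10. Its exchange factor gene Rcc1 fell by 0.59, and the pore subunit genes Nup85 and Nup133 by 0.62 and 0.47.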
